A study of Mus musculus with 4 samples.

Results

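The miR-15, miR-16 and miR-195 family is a group of microRNAs (miRNAs) that share 1 seed, the stretch of bases 2 to 8 with which a miRNA finds its target mRNAs. The members were chosen by name and were mmu-miR-15a-5p, mmu-miR-15b-5p, mmu-miR-16-5p and mmu-miR-195a-5p, that is 4 of the 1247 mouse miRNAs on the array. They were measured in the stromal-vascular fraction (SVF) of visceral white adipose tissue (visWAT), which holds the non-adipocytes of fat, including preadipocytes, vascular cells and immune cells. The question was how the miRNA profile of this fraction changes early in the browning of white fat, when a β3-adrenoceptor agonist drives preadipocytes toward beige adipocytes. Vehicle mice received PBS, and CL mice received 1 mg/kg CL-316243, the β3-adrenoceptor agonist, in PBS for 3 days. All were female mice of 8 weeks on a standard diet, with no genetic change named. The labels have them kept at room temperature, whereas the general methods of the study describe thermoneutral housing before and during treatment. The labels give the strain as C57/BL6, C57/BL7, C57/BL8 and C57/BL9, 1 name per array, whereas the growth protocol names C57/BL6 mice for all. The injections were subcutaneous according to the labels and intraperitoneal according to the methods of the study. Each of the 4 arrays, 2 for vehicle and 2 for CL, held RNA pooled from several mice, so the spread between arrays is a spread between pools and not between animals.

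A miRNA guides a silencing complex to mRNAs that carry a match to its seed, and the mRNAs are then repressed. Members of the miR-15, miR-16 and miR-195 family are known as brakes on cell division and survival, since they repress D- and E-type cyclins, Cdk6 and the survival factor Bcl2. miR-15a and one copy of miR-16 are cut from the non-coding transcript Dleu2, miR-15b and the other copy of miR-16 from an intron of Smc4, and miR-195a from a cluster that it shares with miR-497.

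The mature sequences of the 4 members are printed because the shared seed defines the family and because the bases outside it are what the probes of the array have to tell apart. They were taken from RefSeq (assembly GRCm38.p6), which held all 4, and run 5′ to 3′ with the seed in capitals.
miR-15a-5p: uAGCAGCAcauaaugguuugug
miR-15b-5p: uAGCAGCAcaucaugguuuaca
miR-16-5p: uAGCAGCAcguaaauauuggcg
miR-195a-5p: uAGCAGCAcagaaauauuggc
On this assembly, miR-15a-5p lies at chr14:61632075-61632096 on the minus strand, within Dleu2. miR-15b-5p lies at chr3:69009775-69009796 on the plus strand, within Smc4. miR-16-5p comes from a pair of loci, chr3:69009918-69009939 on the plus strand within Smc4 and chr14:61631936-61631957 on the minus strand within Dleu2, and its single mature sequence does not tell them apart. miR-195a-5p lies at chr11:70235062-70235082 on the plus strand. Lined up from their first base, miR-16-5p and miR-195a-5p shared 19 of 21 bases and miR-15a-5p and miR-15b-5p shared 18 of 22, whereas miR-15a-5p and miR-16-5p shared 16 of 22.

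Other miRNAs on the array carry the same seed, and these are shown as the nearest relatives. miR-497-5p is cut from the transcript of miR-195a, and miR-322-5p, the mouse form of miR-424, from a transcript of the X chromosome that also holds miR-503-5p, whose seed differs in its last base.
miR-497-5p: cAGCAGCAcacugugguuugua
miR-322-5p: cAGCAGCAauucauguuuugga
miR-503-5p: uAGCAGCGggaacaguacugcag
They lie at chr11:70234730-70234751 on the plus strand, chrX:53054306-53054327 on the minus strand and chrX:53054027-53054049 on the minus strand.

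The scanner software detected between 386 and 431 miRNAs per array. The 425 that it found on each array of 1 group or more were tested with limma, a linear model whose test borrows information on the spread across miRNAs. No tested miRNA passed an adjusted p of 0.05 (0% of 425), the smallest adjusted p being 0.0880, and 149 (35.1%) passed an unadjusted p of 0.05. All arrays shared 1 slide and 1 scan date. Vehicle stood in the first row of the slide and CL in its second, so row and treatment cannot be told apart. Arrays of the same replicate number stood in the same column, and when limma was given this column as a block, 86 miRNAs (20.2%) passed the adjusted threshold, 10.8% as higher and 9.41% as lower. Known miRNAs of endothelium and of fibroblasts and mural cells were detected on the arrays, as the label of the tissue implies. Those of leukocytes, red cells and skeletal muscle on the array were detected too, whereas 4 of the 5 miRNAs of epithelium and mesothelium were detected on no array.

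All 4 members were detected on every array, and no difference between CL and vehicle was shown for any of them. Neither limma's adjusted nor its unadjusted threshold was passed by any of the 4 (0 of 4 each), nor was the adjusted threshold when the column was taken as a block (0 of 4). Their log2 fold changes, CL over vehicle, were between 0.11 and 0.31, with a median of 0.21, beside a median of −0.0079 and quartiles of −0.33 and 0.34 over all 425 tested miRNAs. All 4 were above 0, as were 49.2% of all tested miRNAs. In 3 of the 4 members both CL arrays were above both vehicle arrays, which was also so for 38.1% of all tested miRNAs, while 34.8% had both below, so that the groups did not overlap in 72.9%. Since the RNA came from a mixed tissue, fewer cells of a type and less RNA per cell cannot be told apart in any of these values. All levels below are log2 signals after normalization, and each is compared with the same miRNA on the other arrays only, because probes of different miRNAs bind with different strength.

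**Figure D1:**
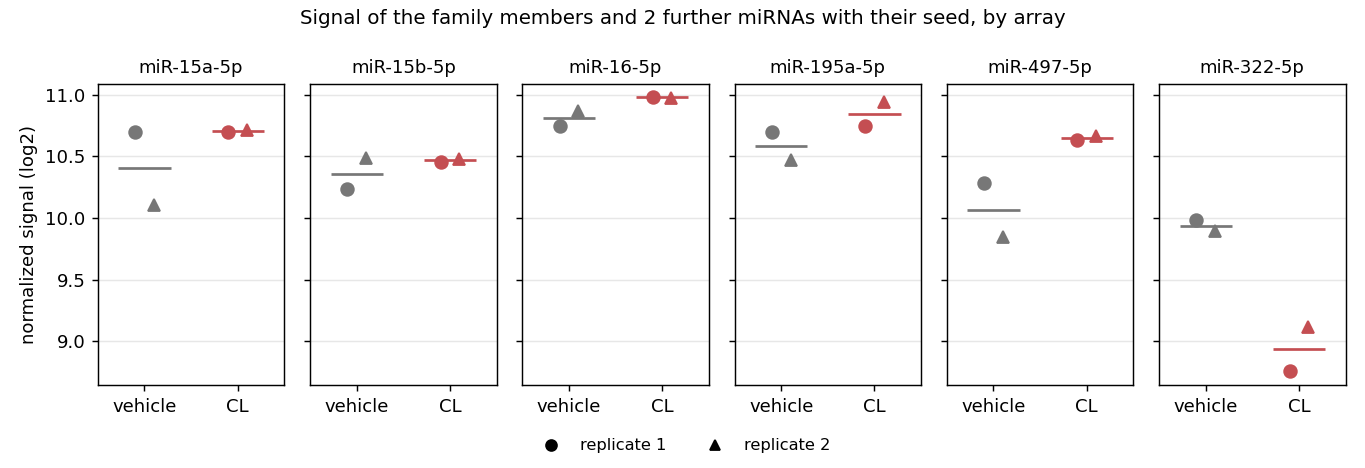
Normalized log2 signal (y axis) of the 4 family members, of miR-497-5p and of miR-322-5p on the 2 vehicle (grey) and 2 CL (red) arrays, with circles for replicate 1, triangles for replicate 2 and lines for group means; heights are to be read within a miRNA only. The CL points of miR-15a-5p, miR-15b-5p and miR-16-5p are level with each other while their vehicle points are apart, and miR-322-5p has CL arrays at 8.76 and 9.12 under vehicle arrays at 9.98 and 9.89.

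miR-16-5p, the most studied brake on G1 cyclins in the family, had log2 signals of 10.74 and 10.87 on the vehicle arrays and of 10.98 and 10.98 on the CL arrays. Both CL arrays were above both vehicle arrays, by little. The group means were 10.81 ± 0.09 (SD, n = 2) and 10.98 ± 0.0015 (SD, n = 2), a log2 fold change of 0.17 (SE 0.12) or 1.13-fold, with limma's adjusted p at 0.348. The 95% interval of the log2 fold change, from −0.15 to 0.49, excludes a doubling or a halving but includes no change. Within the columns of the slide, CL exceeded vehicle by 0.23 and 0.11, so that without vehicle replicate 1 the log2 fold change was 0.11 and without vehicle replicate 2 it was 0.23. In the latter fit miR-16-5p passed limma's unadjusted threshold, as 39.5% of all tested miRNAs did, but not the adjusted one (adjusted p = 0.124).

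miR-195a-5p, which differs from miR-16-5p in few bases, had log2 signals of 10.70 and 10.47 on the vehicle arrays and of 10.74 and 10.94 on the CL arrays. The groups did not overlap, although the first vehicle array was nearly level with the first CL array. Its log2 fold change was 0.25 (SE 0.15) or 1.19-fold, with a 95% interval from −0.15 to 0.66 and limma's adjusted p at 0.275. It rested mainly on the second column, where CL exceeded vehicle by 0.46, against 0.044 in the first. Leaving out 1 array gave 0.37 without vehicle replicate 1, 0.14 without vehicle replicate 2, 0.35 without CL replicate 1 and 0.16 without CL replicate 2.

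miR-15a-5p, which is known as a repressor of Bcl2, had log2 signals of 10.70 and 10.10 on the vehicle arrays and of 10.70 and 10.72 on the CL arrays. The second vehicle array stood apart below the other 3, which were level, so that the groups failed to overlap by 0.0019 only. A log2 fold change of 0.31 (SE 0.23) or 1.24-fold had the widest 95% interval of the 4 members, from −0.31 to 0.92, and limma's adjusted p was 0.370. It came from the second column of the slide, where CL exceeded vehicle by 0.61. Without vehicle replicate 1 the log2 fold change was 0.60 and limma's adjusted p 0.0126, in a fit that also called 113 miRNAs as higher and 116 as lower, and without vehicle replicate 2 it was 0.010.

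miR-15b-5p, which is cut from the Smc4 transcript together with miR-16-5p, had log2 signals of 10.23 and 10.49 on the vehicle arrays and of 10.46 and 10.47 on the CL arrays. The groups overlapped, with the second vehicle array at the top. The change was 0.11 (SE 0.14) on the log2 scale or 1.08-fold, with a 95% interval from −0.27 to 0.49 and limma's adjusted p at 0.629. CL exceeded vehicle by 0.23 in the first column, and the difference in the second was −0.014. Without vehicle replicate 1 the log2 fold change was −0.023, so its sign rested on that array. Without vehicle replicate 2 it was 0.23, which passed limma's unadjusted threshold but not the adjusted one (adjusted p = 0.124).

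Exact two-sided permutation tests over the arrays gave p = 0.33 for miR-15a-5p, miR-16-5p and miR-195a-5p, which is the smallest p that 2 arrays against 2 allow, and p = 1 for miR-15b-5p. With the column as a block, limma's adjusted p was 0.321 for miR-15a-5p, 0.715 for miR-15b-5p, 0.507 for miR-16-5p and 0.358 for miR-195a-5p. The changes were also of ordinary size among the tested miRNAs. Between 20.5% of them, for miR-15b-5p, and 46.4%, for miR-15a-5p, had a smaller absolute log2 fold change.

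**Figure D2:**
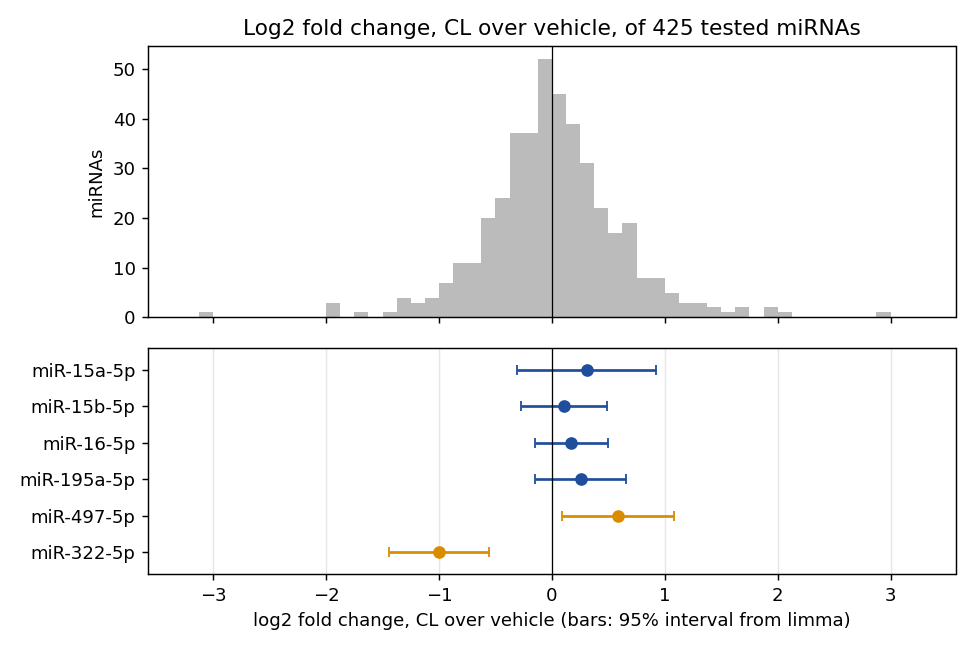
Upper panel, number of miRNAs (y axis) by log2 fold change, CL over vehicle (x axis), for the 425 tested miRNAs; lower panel, the same change on the same axis for the 4 members (blue) and for miR-497-5p and miR-322-5p (orange), with points for limma's estimates and bars for 95% intervals. The members lie in the middle of the distribution with intervals that include 0, whereas the interval of miR-497-5p runs from 0.087 to 1.08 and that of miR-322-5p from −1.45 to −0.55.

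Whether the members responded differently from each other was tested within each array, as the change of each against that of miR-16-5p. The response of miR-15a-5p exceeded that of miR-16-5p by 0.14 on the log2 scale, that of miR-195a-5p exceeded it by 0.084, and that of miR-15b-5p minus that of miR-16-5p was −0.064. Exact permutation p-values were 1, 0.667 and 0.667, and all were 1 after adjustment over the 3 comparisons. In each of these quantities the vehicle arrays differed by more than the groups did. The SD of the vehicle arrays was 0.51 for miR-15a-5p, 0.25 for miR-195a-5p and 0.092 for miR-15b-5p. A design of 2 arrays against 2 cannot reach 0.05 by permutation, so that these p-values leave it unknown whether the members responded alike.

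The relatives with the same seed were spread more widely than the members. miR-497-5p, which is encoded beside miR-195a, had log2 signals of 10.28 and 9.84 on the vehicle arrays and of 10.63 and 10.66 on the CL arrays. Its CL arrays were level with each other and above both vehicle arrays. Its log2 fold change of 0.59 (SE 0.19) or 1.50-fold passed limma's unadjusted threshold but not the adjusted one (limma's adjusted p = 0.121, and adjusted p = 0.0775 with the column as a block). Within the columns, CL exceeded vehicle by 0.35 and 0.82. When either CL array was left out, the log2 fold change was about as large, at 0.60 without CL replicate 1 and 0.57 without CL replicate 2, but the unadjusted threshold was not passed. In those fits the single CL array is assumed to vary as the vehicle arrays did, and limma gave every tested miRNA the same SE of 0.39. Without vehicle replicate 2 it was 0.36.

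miR-322-5p, known from muscle and other differentiating cells as a further repressor of cell-cycle genes, had log2 signals of 9.98 and 9.89 on the vehicle arrays and of 8.76 and 9.12 on the CL arrays. Both CL arrays lay clearly below both vehicle arrays. At a log2 fold change of −1.0 (SE 0.17), the level after CL was 0.500 times that after vehicle, which passed limma's unadjusted threshold but not the adjusted one (limma's adjusted p = 0.0917). With the column as a block miR-322-5p passed the adjusted threshold (limma's adjusted p = 0.0250), and it was lower by 1.22 and 0.78 within the columns. It stayed negative under all 19 other ways of processing, from −1.42 to −0.79.

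miR-503-5p, which shares its transcript with miR-322-5p, had log2 signals of 6.00 and 5.53 on the vehicle arrays and of 5.24 and 5.36 on the CL arrays. Its groups did not overlap, with the CL arrays lower. Its signal was dim, and of the 20 spots of its shorter probe 0 on CL 1 and 5 on CL 2 were well above background. On the vehicle arrays these counts were 20 and 10. Its log2 fold change of −0.47 (SE 0.20) passed neither threshold of limma (adjusted p = 0.168). It was positive, at 1.11, when the scanner software's total per miRNA was used in place of the spots. Without vehicle replicate 1 it was −0.24, and without vehicle replicate 2 it was −0.70 and passed the unadjusted threshold.

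Set against the mean of the 4 members on the same array, the response of miR-497-5p was higher by 0.38, that of miR-322-5p lower by 1.21 and that of miR-503-5p lower by 0.68, all on the log2 scale. The exact permutation p was 0.33 for each, the smallest that 2 arrays against 2 allow, so that a difference from the family could not be shown by this test. The response of miR-497-5p exceeded that of its neighbour miR-195a-5p by 0.33, again with an exact permutation p of 0.33. These 4 comparisons were added after the values of the relatives were seen. The remaining miRNAs of the array with this seed, miR-195b, miR-6342, miR-6353 and miR-6419, were detected on no array.

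The other arms of the hairpins, which are usually discarded when the 5p arm is loaded, were for the most part not detected. Of 6 such arms on the array, 5 were detected on no array. The exception was miR-195a-3p, with log2 signals of 4.49 and 4.56 on the vehicle arrays and of 4.54 and 4.56 on the CL arrays. These groups overlapped, and the log2 fold change was 0.026 (SE 0.12, limma's adjusted p = 0.878). The signal was dim and the value depended on the processing. In the log2 table deposited by the authors the change was 1.30, with vehicle at 0.006 and 2.44 and CL at 2.43 and 2.61.

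Each member was read by a pair of probes of different length, each printed on 20 spots, so the spots give a view of the measurement below the level of the miRNA. The longest probes of the nearest pairs are shown as DNA, 5′ to 3′, with capitals at the bases that do not pair with the relative, in order to show what separates their signals.
miR-16-5p probe against miR-195a-5p: CgccaatatttACgtgct
miR-195a-5p probe against miR-16-5p: gccaatatttCTgtgctgc
miR-15a-5p probe against miR-15b-5p: CACaaaccatTatgtgctgcta
miR-15b-5p probe against miR-15a-5p: TGTaaaccatGatgtgctgc
The probe of miR-16-5p left 3 bases unpaired on miR-195a-5p, and the probe of miR-195a-5p left 2 unpaired on miR-16-5p. The probes of miR-15a-5p and miR-15b-5p left 4 bases unpaired on each other's miRNA. How much of each signal came from the relative was not tested, and the values of these pairs are uncertain to that extent.

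The spots of the members were bright and close to each other. All 640 spot readings of the 4 members were well above background and none was saturated, with median signals of a probe between 866 and 3591. Within a probe on 1 array, the SD of the log2 signal over its spots had a median of 0.046 and was at most 0.13, which is less than the 0.59 by which the vehicle arrays differed for miR-15a-5p. Both of its probes were low on the second vehicle array. Before normalization, the median spot signal of its shorter probe was 1761 on vehicle 1 but 1067 on vehicle 2, with CL at 1504 and 1664. That of the longer probe was 1971 on vehicle 1 but 1198 on vehicle 2, with CL at 1688 and 1888.

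Both probes gave the same sign for 3 of the 4 members. The log2 fold changes were 0.23 and 0.14 for the probes of miR-16-5p, 0.35 and 0.13 for those of miR-195a-5p and 0.34 and 0.30 for those of miR-15a-5p. For miR-15b-5p they were 0.18 and −0.03, with the lower value at the longer probe. Among the relatives, the probes of miR-497-5p gave 0.68 and 0.39, and those of miR-322-5p gave −0.98 and −1.01.

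At the level of spots, the mean of the CL arrays was above that of the vehicle arrays in 37 of 37 spots of miR-16-5p that had a value on all 4 arrays, 34 of 34 of miR-195a-5p, 31 of 31 of miR-15a-5p and 23 of 32 of miR-15b-5p. Together this was 93.3% of the members' spots, beside 50.1% of the spots of all tested miRNAs. Spots of 1 array share its RNA and are not replicates of the treatment, so these shares describe the probes only.

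**Figure D3:**
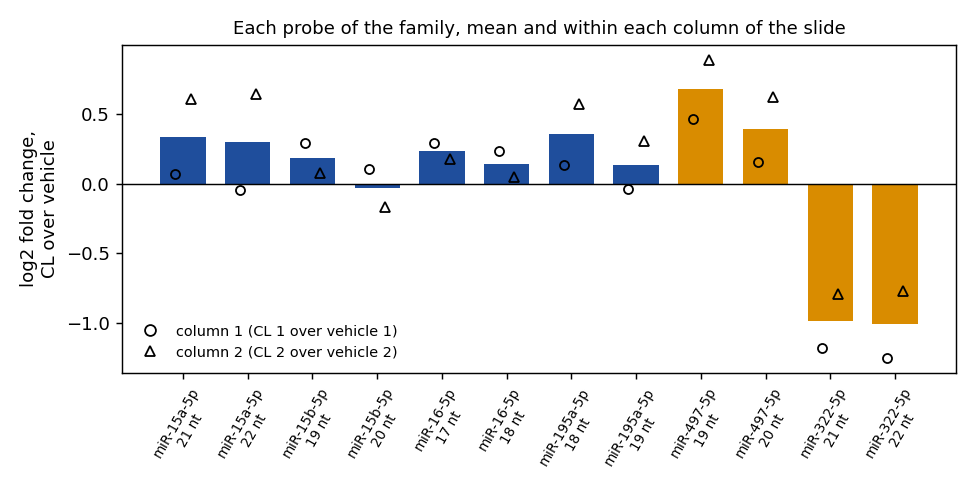
Log2 fold change, CL over vehicle (y axis), of each probe of the 4 members (blue) and of miR-497-5p and miR-322-5p (orange), from the median of its spots on each array, with probe length in nucleotides (nt) on the x axis; bars are the mean over the columns of the slide, circles CL 1 over vehicle 1 and triangles CL 2 over vehicle 2. The longer probe of miR-15b-5p is the only one of a member whose bar is below 0, at −0.03, and both probes of miR-15a-5p have their triangle far above their circle.

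The small upward values of the members depended on the processing. Of 19 other ways of processing, 18 left all 4 members short of the adjusted threshold, the exception being the fit without vehicle replicate 1 given above for miR-15a-5p. The unadjusted threshold was passed by no member in 17 of them, the rest being the fits without vehicle replicate 1 or without vehicle replicate 2. Those fits leave 1 vehicle array, and in them a larger share of all tested miRNAs passed than with all arrays. All 4 log2 fold changes were above 0 in 14 of the 19. In the log2 table deposited by the authors, the differences were 0.11 for miR-15a-5p, −0.11 for miR-15b-5p, −0.025 for miR-16-5p and −0.018 for miR-195a-5p, so that 3 of the 4 signs were turned. When each array's trend on the base content and length of the longest probe was removed, they were −0.085, −0.20, 0.030 and 0.057 in the same order. Without normalization between arrays the median of all tested miRNAs was shifted to −0.12, and miR-15b-5p was at −0.016.

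**Figure D4:**
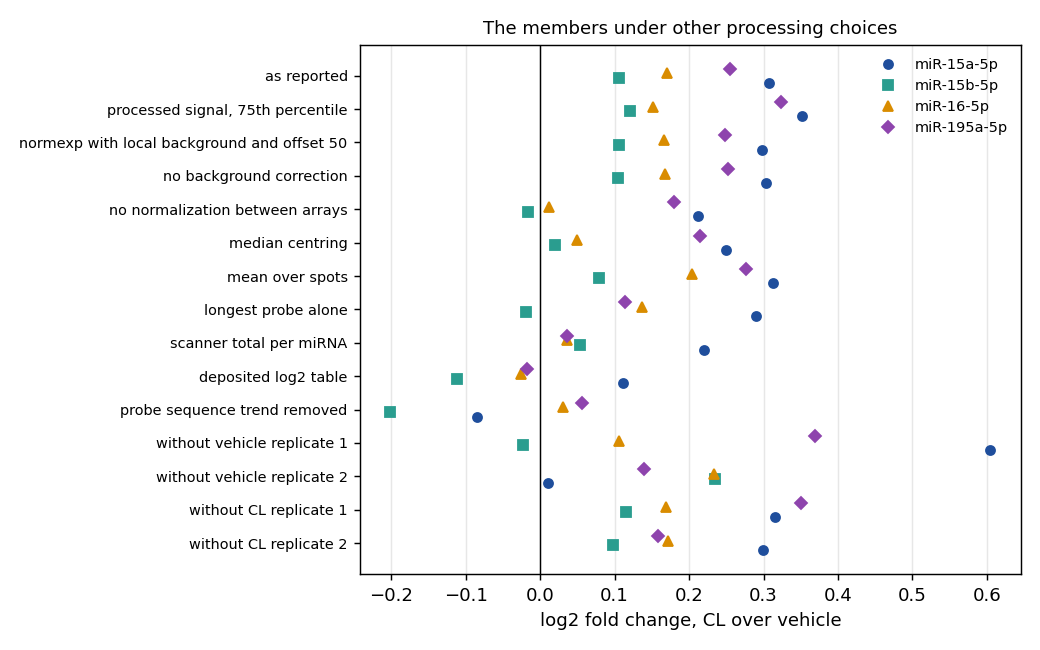
Log2 fold change, CL over vehicle (x axis), of the 4 members as reported and under 14 alternative settings (y axis) that changed the values; settings that change only the test or the set of miRNAs tested are not drawn. The points lie between −0.20 and 0.60, on both sides of 0 for each member, with the highest for miR-15a-5p without vehicle replicate 1.

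Profiles like that of the family were looked for among all tested miRNAs, as the distance of each miRNA's centred profile over the 4 arrays from the mean centred profile of the members. The nearest were let-7c-5p, at a root mean square distance of 0.019 on the log2 scale, miR-28a-5p, at 0.021, and miR-132-3p, at 0.024. Their log2 fold changes were 0.18 for let-7c-5p, 0.20 for miR-28a-5p and 0.18 for miR-132-3p. The members themselves lay 0.068 to 0.18 from their own mean. The 3 were picked as the nearest of all tested miRNAs, so their smaller distances follow from the choice.

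Other miRNAs known to act on cell growth were read from lists. Of 17 growth-restraining miRNAs (let-7 members, the miR-34 family, miR-29 and others), 4 were higher and 0 lower at limma's unadjusted threshold, beside 18.8% higher and 16.2% lower among all tested miRNAs. Over the list, the median log2 fold change was 0.077. The 4 were miR-34a-5p, miR-34b-5p and miR-34c-5p, transcribed under p53, at log2 fold changes of 0.72, 1.70 and 1.31, and miR-29b-3p, which represses collagens, at 1.72. The value of miR-29b-3p depended on the vehicle array used and was between 0.85 and 2.59 when either was left out. That of miR-34a-5p was 0.76 without CL replicate 1 and 0.69 without CL replicate 2, about as large as with all arrays, but did not pass at the common SE of 0.39 in those fits. No let-7 member passed.

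Of 11 growth-promoting miRNAs of the miR-17 clusters and others, 3 were higher and 0 lower at the unadjusted threshold, with a median log2 fold change of 0.32 over the list. These were miR-106b-5p at 0.74, miR-18a-5p at 0.56 and miR-19a-3p at 0.82, the last between 0.42 and 1.22 when either vehicle array was left out. Without CL replicate 1 they were at 0.65, 0.50 and 0.71 in this order and did not pass at that SE, and neither did miR-18a-5p at 0.62 without CL replicate 2. No member of either list passed limma's adjusted threshold. With the column as a block, 4 of the 17 and 2 of the 11 passed it, all higher, beside 10.8% higher among all tested miRNAs.

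The family is found in most cell types, and miRNAs that mark other cells moved across the same arrays. Their counts stand beside 18.8% higher and 16.2% lower among all tested miRNAs, and the lists are short. The 3 red cell miRNAs on the array (miR-144-3p, miR-144-5p and miR-451a) were all higher at the unadjusted threshold, with summed linear signals of 8204 and 9550 on the vehicle arrays and of 16907 and 14295 on the CL arrays. Without CL replicate 1, miR-451a was at 0.62 in place of 0.73 and did not pass. The 2 endothelial miRNAs (both arms of miR-126) were lower, with summed signals of 15504 and 14238 on the vehicle arrays and of 5149 and 6470 on the CL arrays, although miR-126-5p, at a log2 fold change of −0.80, did not pass without vehicle replicate 1 at −0.66 or without CL replicate 1 at −0.60. Of the 6 fibroblast and mural miRNAs 4 were higher and 1 lower, with sums of 4044 and 2556 against 6567 and 6727. The higher ones were miR-199a-3p, miR-199a-5p, miR-199b-5p and miR-214-3p. In contrast, miR-145a-5p was lower, at a log2 fold change of −0.75, and miR-143-3p, at −0.43, did not pass. miR-145a-5p was about as large without CL replicate 1, at −0.75, and without CL replicate 2, at −0.76. It did not pass at the common SE of 0.39 in those fits. The rise of the sums thus does not hold for every miRNA of this list. Of the 5 leukocyte miRNAs 2 were higher and 1 lower, with sums of 2341 and 1770 against 3449 and 3361. The higher values came from a single hairpin, miR-142, whose 3p arm had a log2 fold change of 2.09 and whose 5p arm had 1.95. In contrast, miR-150-5p was lower, at −0.89. Neither miR-223-3p, at 0.086, nor miR-155-5p, at −0.057, passed. The higher sums after CL thus do not stand for every leukocyte miRNA listed. Of the 3 skeletal muscle miRNAs none passed. The part of these cell types in the values of the family was not tested.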

How the data were processed

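The 4 Cy3 arrays carried SVF RNA. The authors deposited scanner files of Feature Extraction 10.7.1.1 with the linear intensity of each of 52044 spots (49880 for 1247 miRNAs, 1000 negative controls with means of 31.7 to 38.6), and a table of log2 values. The deposited log2 columns had medians of −3.31, −3.30, −3.20 and −3.26. These medians are also the values held by miR-195b, which was detected on no array. The order of the columns followed the signal (Spearman's rho 0.99 over 362 miRNAs), so they were of the same direction. A rank correlation does not show scale or centring. The exact normalization by the authors is not given in the sources used here. The study's methods mention RMA and SAM, with no detail for these arrays.

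From the deposited intensities, limma 3.58.1 in R 4.3.3 corrected mean spot signals with normexp, without local background or offset. Control and outlier spots were left out, arrays were quantile-normalized and miRNAs summarised by median polish over spots. The 425 miRNAs detected throughout 1 group or more were tested two-sidedly with lmFit and eBayes, and p-values were adjusted by Benjamini-Hochberg over all 425. The limma fit was tested on simulated summarised values, and the median polish on simulated spots. The planted changes were larger than those of the members, and background correction and normalization between arrays were not simulated. The number of arrays limits the precision. Nothing in the labels ties the replicate numbers to shared animals, but in the files each number is 1 slide column with an array of either group, and the deviations of same-numbered arrays from their group means had a correlation of 0.12 across miRNAs.

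Sequences came from RefSeq (1019 of 1247 miRNA names matched). The position listed for each of the 8 member probes lay inside the RefSeq hairpin, and for 6 of them it also lay inside the RefSeq mature sequence. Cell type and growth lists were written by hand. Members and lists were chosen with earlier results of these data known. Named miRNAs are the members, other miRNAs with their seed, hairpin neighbours, the 3 nearest profiles, the list members past the unadjusted threshold, and miR-143-3p. SAM was not run, since it permutes 4 arrays.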

Additional observations from a re-analysis of the deposited data

How the results depend on the processing

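Each of the 4 fold changes and 3 differences between members was recomputed under 19 and 14 alternatives. The log2 fold change turned negative for miR-15a-5p at −0.085 with the probe sequence trend removed, for miR-15b-5p at −0.016 without normalization between arrays, −0.018 from the longest probe, −0.11 in the deposited table and −0.20 with the trend removed, and in the deposited table for miR-16-5p at −0.025 and miR-195a-5p at −0.018. Leaving out 1 array gave 0.010 to 0.60 for miR-15a-5p and −0.023 to 0.23 for miR-15b-5p. The difference from miR-16-5p turned to −0.12 for miR-15a-5p with the trend removed, 0.018 for miR-15b-5p with the scanner total and −0.022 for miR-195a-5p from the longest probe. Leaving out 1 array gave −0.22 to 0.50, −0.13 to 0.0010 and −0.094 to 0.26 for these differences. The causes were not tested.

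The count of miRNAs past the adjusted threshold, 0 in each direction, became 46 higher and 40 lower with the replicate number (its slide column) as a block, which called no member. It became 17 and 47 without normalization, 20 and 24 with median centring, 11 and 15 with the scanner total, 2 and 5 in the deposited table, 22 and 29 with the trend removed, and 2 lower with an intensity trend. Leaving out 1 array gave 0 to 113 higher and 1 to 116 lower, the most without vehicle replicate 1. At the unadjusted threshold, 80 higher became 53 with scaling to the 75th percentile, 46 without normalization, 40 with median centring, 46 in the deposited table and 32 with the methods' t-test, which gave 20 lower in place of 69. Leaving out 1 array gave 34 to 128 higher and 27 to 134 lower. With 2 arrays per group, changes of the size seen for the members are not separable from none.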
